A study of Mus musculus with 6 samples.

Results

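DNA damage is met by several repair systems, and 7 genes that serve them were compared between UN-SCC679 and UN-SCC680, 2 cell lines from lung squamous cell carcinomas of the mouse. The 7 are *Nbn*, *Rad54b*, *Fancg*, *Xpa*, *Rad23b*, *Aptx* and *Pot1a*, taken by Ensembl identifier from a table of 55359 rows. Both lines come from A/J mice whose lung tumors were induced by skin painting with the carcinogen N-nitroso-tris-chloroethylurea (NTCU), each from a different animal. Both were cultured to immortality, passed through Rag2-/- IL2Rg-/- mice and then through A/J mice, and no treatment of the sequenced cells is given. Polyadenylated RNA was sequenced in 3 libraries per line. Nothing in the labels says that the libraries of a line are separate cultures, so p-values measure the spread between libraries of 1 line and not between tumors.

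The gene positions in the table differ from those of GRCm38 (mm10), the build named for the reads, over most of the genome, and a row at such a place cannot be read as its gene. The 2 sets of positions mostly agree in the first stretch of chromosomes 4 and 6, up to starts of 58435255 and 29473161. In these stretches 1144 rows lie, of which 498 on chromosome 4 and 129 on chromosome 6 could be placed by symbol, with a median offset from RefSeq, at the closer end of the gene, of 2 bases and 1 base. Of these, 322 and 103 lay within 10 bases, while 25 and 2 were over 1000 bases off. For 2 of the 7 genes the farther end differed much from RefSeq (table minus RefSeq), the start of *Xpa* by -19873 bases and the end of *Aptx* by -18473 bases. All 7 genes lie there, *Pot1a* on chromosome 6 and the others on chromosome 4. The libraries held 3568293 to 4381885 counts. Of these, 14.19% to 14.29% fell in the agreeing stretches in UN-SCC679 and 12.35% to 12.43% in UN-SCC680. The squamous identity of the lines could not be checked, because of 12 squamous epithelial markers only *Esrp1* lies there, with 3 counts in all 6 libraries. Of 12 fibroblast markers only *Col1a2*, a chain of type I collagen, lies there, with a normalized CPM (counts scaled to a common library size) of 26546 to 28858 in UN-SCC679 and 2183 to 2362 in UN-SCC680, and the part of such cells in the results below was not tested.

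As background, breaks of both DNA strands are sensed by the complex of MRE11, RAD50 and NBN, which recruits the kinase ATM, and are mended by homologous recombination, in which RAD54 proteins act. Crosslinks between the strands, which chloroethylating agents can form, are handled by the Fanconi anemia core complex that holds FANCG. Bulky adducts are removed by nucleotide excision repair, where RAD23B steadies the damage sensor XPC and XPA verifies the lesion. Aprataxin (APTX) clears abortive ligation products at single-strand breaks, and POT1 proteins cover the single-stranded end of telomeres and keep it from being read as damage.

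Of the 7 genes, 4 were higher in UN-SCC680 at an adjusted p-value under 5e-05, namely *Fancg*, *Rad54b*, *Nbn* and *Aptx*, and 0 were lower. The test was edgeR's quasi-likelihood test over 8987 rows with Benjamini-Hochberg adjustment. *Pot1a*, *Xpa* and *Rad23b* did not pass. The 7 passed the low-count filter, which kept 343 rows of the agreeing stretches. By the same test 30.4% of all rows were called (15.3% as higher and 15.2% as lower in UN-SCC680), and 53.9% of the 343 rows at agreeing positions (38.5% as higher and 15.5% as lower), so 4 of 7 is near the share among rows from the same stretches. At an adjusted p-value under 0.05, 6 of the 7 passed, against 58.4% of all rows and 75.5% of those at agreeing positions. The libraries of the lines did not overlap for 6 of the 7, all higher in UN-SCC680, against 62.2% of all rows (31.0% as higher) and 77.3% of those at agreeing positions (53.9% as higher). The median log2 fold change was 0.35 over the 7 genes, 0.23 over the 343 rows, 0.29 over the 254 of these on chromosome 4, -0.017 over the 89 on chromosome 6 and -0.0028 over all 8987 rows. Scaling and fitting on the 343 rows alone brought their median to 0.00098 and lowered the value of each of the 7 genes, and its effect is given with each of them.

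**Figure D1:**
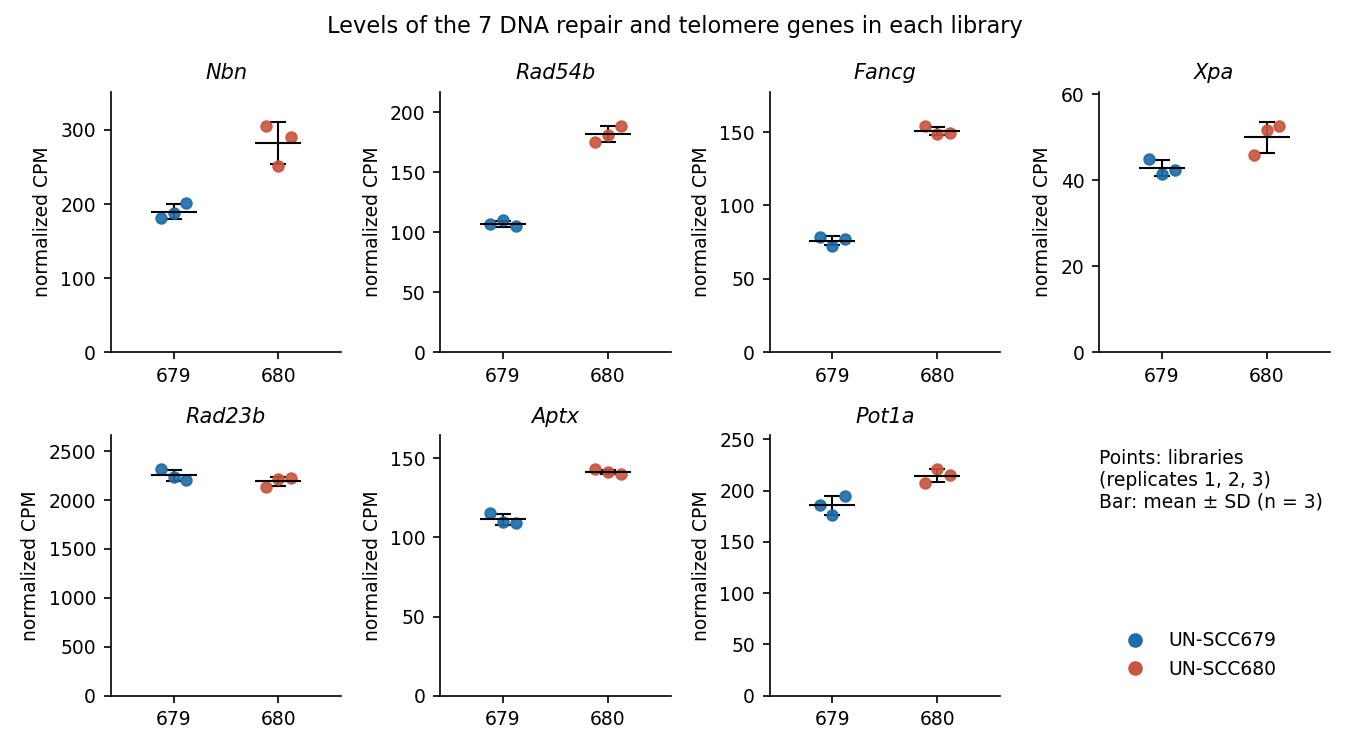
Normalized CPM (y axis, from 0) of each of the 7 genes in the 3 UN-SCC679 and 3 UN-SCC680 libraries, with the mean ± SD. *Fancg*, *Rad54b* and *Nbn* show the widest gaps between the lines, and the libraries overlap only for *Rad23b*.

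*Fancg* (ENSMUSG00000028453.11, chromosome 4, 43002343 to 43010506, minus strand) showed the largest difference of the 7. Its normalized CPM was 78.7, 72.4 and 77.1 in the UN-SCC679 libraries and 154, 149 and 149 in the UN-SCC680 libraries. The lines did not overlap, and the spread within each was small beside the gap between them. The mean rose from 76.1 ± 3.28 to 151 ± 2.97 (SD, n = 3 each), a fold of 1.99 and a log2 fold change of 0.99 (standard error 0.063, edgeR adjusted p = 5.37e-18). Scaled on agreeing rows alone, the log2 fold change was 0.76. Of the 343 rows at agreeing positions, 31 had a higher log2 fold change.

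The 250 bases before an annotated transcription start were read from the RefSeq promoter table of GRCm38.p6, which matched 5 of the 7 genes and not *Nbn* or *Rad54b*. The table gives 2 starts for *Aptx*, of which the first is shown. Windows are shown for *Fancg*, the gene that differed most, for *Aptx*, which was also higher, and for *Rad23b*, which was not. Capitals mark matches, on either strand, to the E2F site TTTCCCGC, the cyclic AMP response element TGACGTCA, the CCAAT box CCAAT and the GC box GGGCGG. The cell cycle homology element TTTGAA was searched as well and was not matched in these 3 windows. No motif overlapped another.
*Fancg*, chr4:43010302-43010551, minus strand: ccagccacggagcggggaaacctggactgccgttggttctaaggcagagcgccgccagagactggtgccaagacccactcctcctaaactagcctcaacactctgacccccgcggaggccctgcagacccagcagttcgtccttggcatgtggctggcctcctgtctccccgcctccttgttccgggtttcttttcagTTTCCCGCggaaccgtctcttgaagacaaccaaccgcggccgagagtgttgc
*Aptx*, chr4:40703195-40703444, minus strand: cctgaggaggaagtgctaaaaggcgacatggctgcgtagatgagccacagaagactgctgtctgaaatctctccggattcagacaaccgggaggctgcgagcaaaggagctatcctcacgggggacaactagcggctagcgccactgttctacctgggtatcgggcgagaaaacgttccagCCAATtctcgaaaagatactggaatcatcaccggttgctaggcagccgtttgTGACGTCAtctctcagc
*Rad23b*, chr4:55349792-55350041, plus strand: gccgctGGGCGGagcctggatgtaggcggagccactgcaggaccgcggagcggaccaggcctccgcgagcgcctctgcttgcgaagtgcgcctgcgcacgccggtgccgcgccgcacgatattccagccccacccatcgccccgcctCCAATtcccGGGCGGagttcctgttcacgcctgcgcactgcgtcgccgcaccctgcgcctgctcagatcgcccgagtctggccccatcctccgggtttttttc
The *Fancg* window held the E2F letters from -52 to -45 relative to its start, and 0.895% of the 32851 windows in the table hold them. That start lies inside the gene, since the row of *Fancg* reaches 43010506 and RefSeq ends farther out (table minus RefSeq -61 bases). The E2F letters thus lie within the span of the row and not before it. The first *Aptx* window held the cyclic AMP response element from -17 to -10, letters found in 1.55% of windows, and a CCAAT box from -69 to -65. The window of the second *Aptx* start (chr4:40702917-40703166) held neither, but 2 GC boxes, from -99 to -94 and from -9 to -4. RefSeq places the end of *Aptx* beyond that of the row (table minus RefSeq -18473 bases). Both *Aptx* windows therefore lie inside the gene as RefSeq has it. The *Rad23b* window held 2 GC boxes and a CCAAT box, which 32.7% and 33.8% of windows hold. The windows of *Xpa* and *Pot1a*, not shown, held a CCAAT box from -238 to -234 and a GC box from -117 to -112. A match describes the letters of a window and is not a measured binding site.

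*Rad54b* (ENSMUSG00000078773.12, chromosome 4, 11558922 to 11615805, plus strand), a DNA translocase of homologous recombination, had 107, 110 and 105 CPM in UN-SCC679 and 176, 181 and 189 in UN-SCC680. The libraries of each line lay close together and the lines did not overlap. The mean was 107 ± 2.57 against 182 ± 6.56 (SD, n = 3 each), a fold of 1.69 and a log2 fold change of 0.76 (standard error 0.057, edgeR adjusted p = 1.30e-15), or 0.53 scaled on agreeing rows alone. Of the exon bases of this row, 35.8% are shared with a row on the same strand that has no symbol here (ENSMUSG00000094595.2, 553 counts in all libraries). How reads in shared bases were assigned is not given in the sources used here, so the level of *Rad54b* is uncertain in that part.

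*Nbn* (ENSMUSG00000028224.15, chromosome 4, 15957925 to 15992589, plus strand) had 181, 188 and 201 CPM in UN-SCC679 and 305, 251 and 290 in UN-SCC680. The lines did not overlap, but replicate 2 of UN-SCC680 lay below the other 2. The spread within UN-SCC680 was 9.95% of the mean, where counting error alone gives 2.88%, so *Nbn* was the most variable of the 7 within a line. The mean was 190 ± 10.4 against 282 ± 28.1 (SD, n = 3 each), a fold of 1.49 and a log2 fold change of 0.57 (standard error 0.056, edgeR adjusted p = 3.21e-12). Leaving out 1 library at a time gave 0.52 to 0.66, and scaling on agreeing rows alone gave 0.34. The partners of NBN could not be set beside it, because the rows of *Mre11a* and *Rad50* lie at positions that do not agree.

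*Aptx* (ENSMUSG00000028411.16, chromosome 4, 40682382 to 40703194, minus strand) had 116, 110 and 109 CPM in UN-SCC679 and 143, 141 and 140 in UN-SCC680. The lines did not overlap, and the spread within each line was smaller than the 4.07% to 4.79% that counting error alone gives. The log2 fold change was 0.35, a fold of 1.27 (standard error 0.059, edgeR adjusted p = 2.43e-06). This call was the least firm of the 4. It was lost with DESeq2 (adjusted p = 7.56e-05), without replicate 2 of UN-SCC679 (edgeR adjusted p = 9.70e-05) and with scaling on agreeing rows alone (log2 fold change 0.11, edgeR adjusted p = 0.0784).

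*Pot1a* (ENSMUSG00000029676.16, chromosome 6, 25743736 to 25809245, minus strand), 1 of the POT1 genes of the mouse, had 186, 176 and 195 CPM in UN-SCC679 and 208, 221 and 215 in UN-SCC680. The lines did not overlap, yet the log2 fold change of 0.21 (standard error 0.051, edgeR adjusted p = 0.000421) missed the threshold. It passed with no low-count filter (0.25, edgeR adjusted p = 2.03e-05) and was -0.020 with scaling on agreeing rows alone. Of those rows, 254 lie on chromosome 4 (median log2 fold change 0.29) and 89 on chromosome 6 (median -0.017), where *Pot1a* lies. The value of -0.020 is therefore not a comparison with the chromosome 6 stretch alone. Reads that fit the related gene *Pot1b* as well could be split between the rows.

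Neither gene of nucleotide excision repair passed the threshold. *Xpa* (ENSMUSG00000028329.14, chromosome 4, 46155347 to 46196311, minus strand) had 45.0, 41.4 and 42.3 CPM in UN-SCC679 and 45.9, 51.6 and 52.6 in UN-SCC680. The lowest UN-SCC680 library lay just above the highest UN-SCC679 library. The log2 fold change was 0.23 (standard error 0.092, edgeR adjusted p = 0.0325) and -0.0083 with scaling on agreeing rows alone. With 152 to 224 counts per library *Xpa* had the lowest counts of the 7. *Xpa* shares 77 exon bases with *Ncbp1* on the opposite strand, which are 2.27% of the exon bases of *Ncbp1*. *Ncbp1* had 23033 counts in all libraries. Although the library kit was stranded, whether counting used strand is not stated. How far reads of the more abundant *Ncbp1* enter the level of *Xpa* is therefore not known.

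*Rad23b* (ENSMUSG00000028426.11, chromosome 4, 55350043 to 55392237, plus strand) had 2313, 2238 and 2205 CPM in UN-SCC679 and 2138, 2213 and 2225 in UN-SCC680. The libraries of the lines overlapped, which held for no other of the 7. The log2 fold change was -0.039 (standard error 0.029, edgeR adjusted p = 0.255). With scaling on agreeing rows alone it was -0.27 (edgeR adjusted p = 1.18e-09), so the call on *Rad23b* depends on the rows used for scaling.

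**Figure D2:**
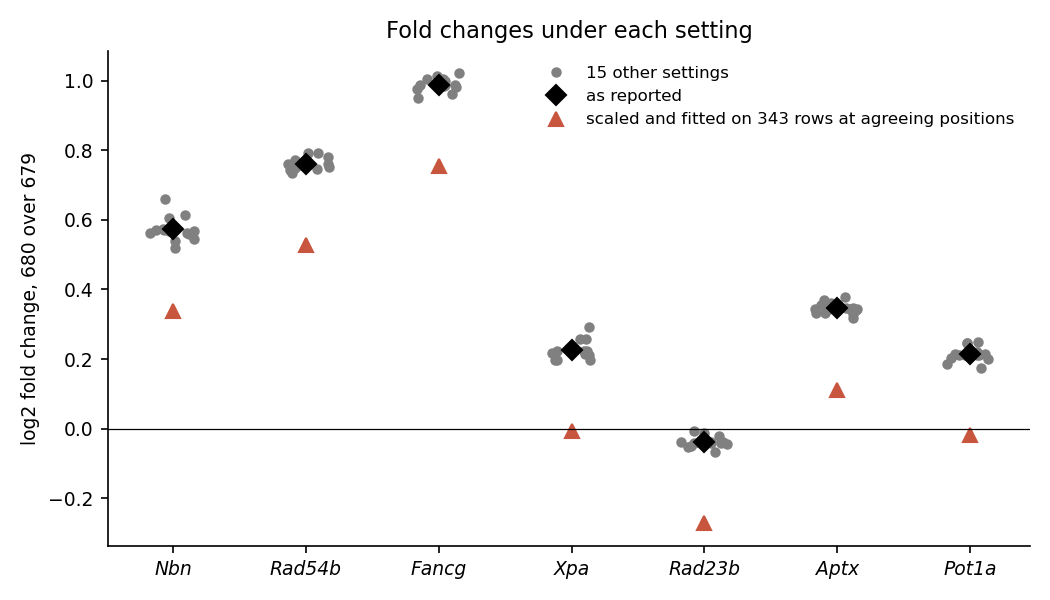
Log2 fold change (y axis, UN-SCC680 over UN-SCC679) of each of the 7 genes as reported (diamonds), under 15 other settings (grey) and scaled on the 343 rows at agreeing positions (triangles). *Fancg*, *Rad54b*, *Nbn* and *Aptx* stay above 0 under each setting, and the triangles of *Xpa* (-0.0083) and *Pot1a* (-0.020) fall below it.

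Ratios within a library do not depend on scaling. They were taken to *Rad23b*, the most abundant of the 7, a choice made after the values were seen. *Fancg* had 0.0340, 0.0323 and 0.0350 counts per count of *Rad23b* in UN-SCC679 and 0.0721, 0.0672 and 0.0671 in UN-SCC680, a log2 difference of 1.03. For the ratios of *Rad54b*, *Nbn*, *Aptx*, *Xpa* and *Pot1a* the log2 differences were 0.80, 0.61, 0.38, 0.26 and 0.25. In each of these 6 ratios every UN-SCC680 library lay above every UN-SCC679 library, with a two-sided exact permutation p of 0.1, the smallest that 3 against 3 libraries allow, and 0.122 after Benjamini-Hochberg adjustment over the 11 ratios computed. The ratio of *Fancg* to *Rad54b* was 0.739, 0.658 and 0.735 in UN-SCC679 and 0.877, 0.822 and 0.791 in UN-SCC680, so *Fancg* differed more than *Rad54b* in these libraries (exact permutation p = 0.1, 0.122 adjusted). The ratio of *Nbn* to *Rad54b* was 1.70, 1.71 and 1.92 in UN-SCC679 and 1.74, 1.39 and 1.54 in UN-SCC680, where the lines overlapped (exact permutation p = 0.3, 0.33 adjusted), so the order of these genes was not resolved. The ratio of *Xpa* to *Pot1a* averaged 0.232 (SD 0.0132) in the UN-SCC679 libraries against 0.233 (SD 0.0115) in those of UN-SCC680 (exact permutation p = 0.8, n = 3 each).

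Levels can be compared between genes only per exon length, here CPM per kilobase of the exon length in the table. On this scale *Rad23b* was highest in both lines, at 393 ± 9.64 (UN-SCC679) and 382 ± 8.19 (UN-SCC680, SD over 3 libraries each). *Nbn* followed at 74.9 ± 4.11 and 111 ± 11.1, with no overlap with its neighbors in the order. In UN-SCC679 the other 5 lay within a narrow range, *Xpa* at 22.6, *Pot1a* at 21.4, *Fancg* at 20.04, *Aptx* at 18.9 and *Rad54b* at 18.5, and each overlapped the next. In UN-SCC680 *Fancg* (39.7) and *Rad54b* (31.4) stood above *Xpa* (26.4), *Pot1a* (24.8) and *Aptx* (24.0) in every library, and only the last 3 overlapped their neighbors. The exon length counts every annotated exon of a gene, used or not, so levels of genes with many alternative exons are understated.

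Of 215 genes listed for DNA repair, damage signaling and telomeres, 9 others lie at agreeing positions. Of these, 5 were higher in UN-SCC680 at the same threshold, 1 was lower and 3 did not pass, with a median log2 fold change of 0.29. Over the 343 rows at agreeing positions 53.9% were called, 38.5% as higher and 15.5% as lower, with a median of 0.23, so the 9 lay near this background. *Mms22l*, which acts in the repair of stalled replication forks, rose from 372, 376 and 390 CPM to 528, 528 and 541 (log2 fold change 0.49). *Rpa3*, the smallest subunit of the single-strand binding protein RPA, rose from 112 ± 2.79 to 158 ± 2.30 CPM (0.50). *Rnf20*, a ubiquitin ligase of histone H2B, and *Sem1*, a partner of BRCA2, had log2 fold changes of 0.45 and 0.29. *Sem1* (0.060) and *Rpa3* (0.26) missed the threshold with scaling on agreeing rows alone. *Trp53inp1*, a p53 target, showed the largest difference of the 9 (2.55). *Usp45*, a deubiquitinase of ERCC1, had a log2 fold change of -0.11 (edgeR adjusted p = 0.0178), *Topors* one of -0.11 (adjusted p = 0.00683) and *Ing3* one of 0.028 (adjusted p = 0.727).

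*Vcp*, a segregase that extracts ubiquitinated proteins from chromatin and other sites, was the only one of the 9 lower at the threshold, from 2754, 2756 and 2734 CPM to 1846, 1810 and 1816 (log2 fold change -0.59, standard error 0.028, edgeR adjusted p = 1.31e-22). It lies next to *Fancg*, and 1835 bases separate the rows. The ratio of *Fancg* to *Vcp* went from 0.0286, 0.0263 and 0.0282 in UN-SCC679 to 0.0835, 0.0822 and 0.0822 in UN-SCC680, a log2 difference of 1.58 that needs no scaling (exact permutation p = 0.1, chosen after the values were seen).

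Many repair genes are expressed most in dividing cells, so the 4 genes of a proliferation list that lie at agreeing positions were set beside them. *Orc3* (origin recognition), *Smc2* (condensin), *Melk* (a mitotic kinase) and *Ccne2* (cyclin E2) had log2 fold changes of 0.50, 0.42, 0.37 and 0.31, and 4 of 4 were higher in UN-SCC680 at the threshold. All 4 lie on chromosome 4, where 42.9% of the 254 rows at agreeing positions were called higher with a median of 0.29 (38.5% over both chromosomes). *Smc2*, for example, had 1541 to 1603 CPM in UN-SCC679 and 2012 to 2160 in UN-SCC680. The study reports similar proliferation of the lines in culture and in immune-deficient mice, and a growth advantage of UN-SCC679 tumors in immune-competent mice. The part of proliferation in the differences of the repair genes was not tested.

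**Figure D3:**
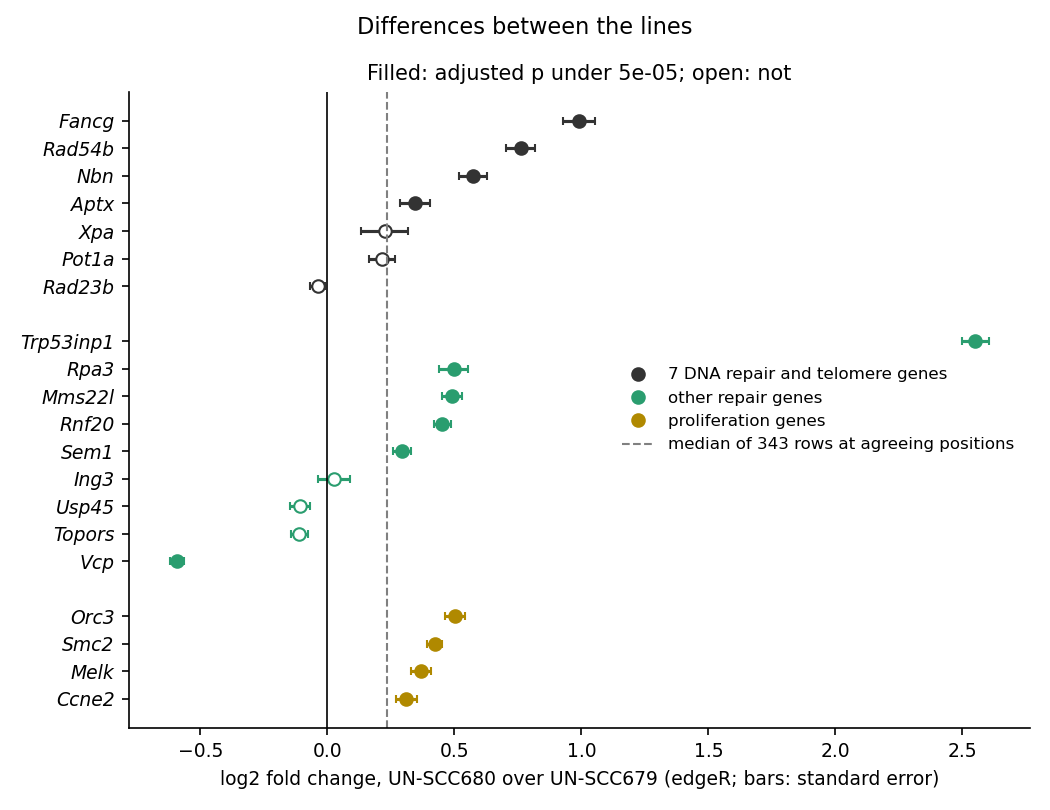
Log2 fold change ± standard error (x axis) of the 7 genes, the 9 other repair genes and the 4 proliferation genes, with filled points for an adjusted p-value under 5e-05 and a dashed line at 0.23, the median of the 343 rows at agreeing positions. *Fancg* (0.99), *Rad54b* (0.76) and *Nbn* (0.57) lie to the right of the 4 proliferation genes, though the bars of *Nbn* and *Orc3* (0.50) overlap. *Aptx* (0.35) lies among the proliferation genes, and *Pot1a*, *Xpa* and *Rad23b* lie to the left of them.

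Each gene was also set beside the nearest tested gene on either side. *Decr1*, a mitochondrial reductase of fatty acid oxidation that lies 12417 bases before *Nbn*, had 412 to 518 counts in the libraries of UN-SCC679. Every library of UN-SCC680 had 0 counts of it, which makes it at least 168-fold lower there with a floor of 3 counts per library (counting error only). *Osgin2*, 4531 bases after *Nbn*, had a log2 fold change of 0.29. So *Nbn* was higher in UN-SCC680 beside a gene with no counts there. Next to *Fancg*, *Vcp* was lower and *Pigo*, an enzyme of GPI anchor synthesis 7128 bases away, was higher by 1.02. *Virma*, before *Rad54b*, had a log2 fold change of 0.51, and the row without a symbol that overlaps *Rad54b* had one of 0.35. *Xpa* lies between *Ncbp1* (0.035) and *Gm12444* (0.45) by start position. *Aptx* lies between *Ndufb6* (0.42) and *Dnaja1* (-0.29), a chaperone gene that fell. *Klf4* (3.26) is the nearest tested gene after *Rad23b*, 134905 bases away, and *Gm12508* (0.37) lies 94823 bases before it. The nearest tested genes to *Pot1a* lie over a megabase away, *Wasl* (0.13, which did not pass the threshold) being 1078727 bases before it. The row after *Pot1a*, ENSMUSG00000106990 (-0.13), did not pass either.

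**Figure D4:**
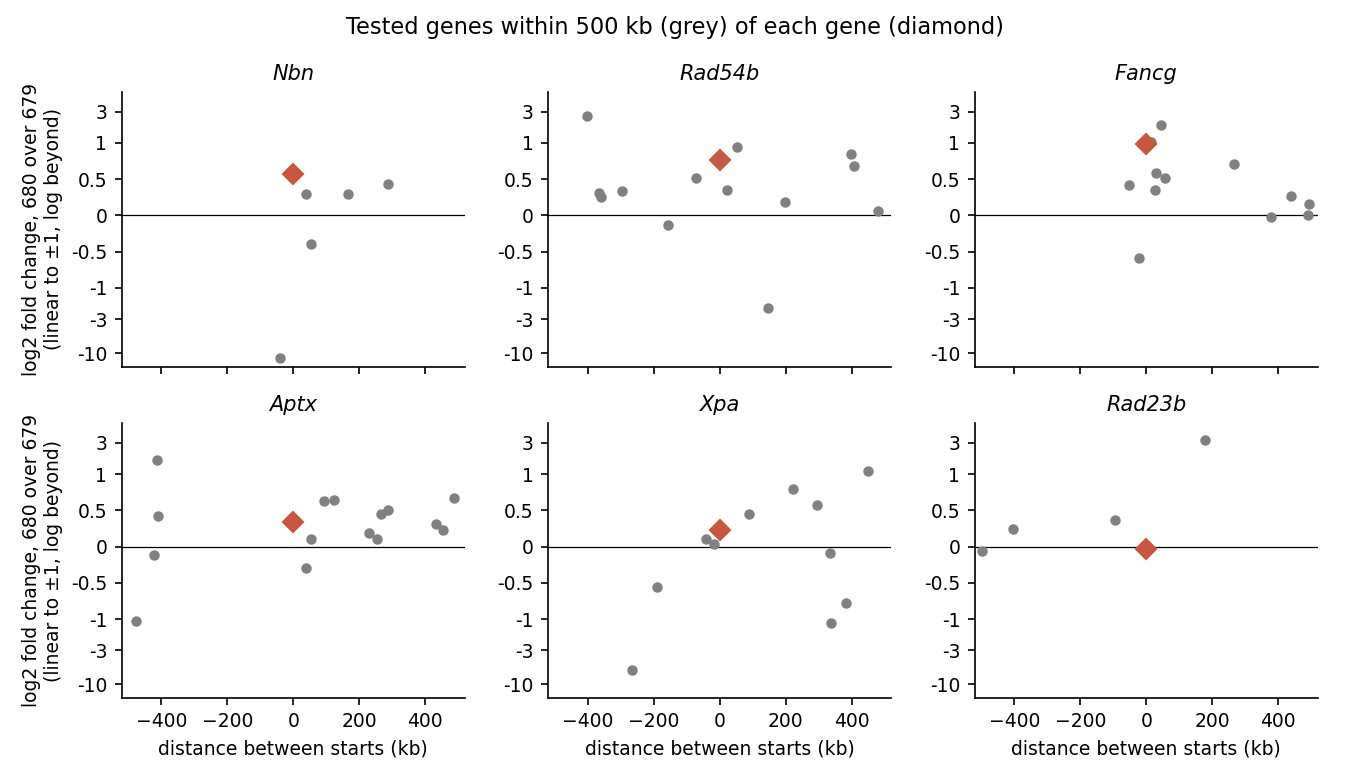
Log2 fold change (y axis, linear to ±1 and logarithmic beyond) of tested genes by the distance of their start (x axis, kb) from the start of each of 6 genes on chromosome 4, within 500 kb. Neighbors differ in size and in sign around *Nbn*, *Rad54b*, *Fancg*, *Aptx* and *Xpa*, and around *Rad23b* they run from -0.059 to 3.26. *Decr1* is the point at -11.9 beside *Nbn*, a fitted value that depends on the prior count.

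In windows of 500 kb on either side, the median log2 fold change of the other tested genes was 0.29 around *Nbn* (5 genes), 0.34 around *Rad54b* (13 genes), 0.38 around *Fancg* (12 genes) and 0.31 around *Aptx* (15 genes). It was 0.035 around *Xpa* (11 genes) and 0.31 around *Rad23b* (4 genes). No gene in its window stood above *Nbn*, 3 stood above *Rad54b*, 2 above *Fancg*, 7 above *Aptx*, 4 above *Xpa* and 3 above *Rad23b*.

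The genes most like each of the 7 were found by the Euclidean distance between log2 CPM profiles over the 6 libraries, each centered on its own mean, among the 343 rows. *Fancg* was nearest to *Pigo* (distance 0.067) and then to *Tpm2*, a tropomyosin (0.11). *Rad54b* was nearest to *Pdp1*, a phosphatase of pyruvate dehydrogenase (0.11), *Aptx* to *Ndufa4* (0.058), *Pot1a* to *Pip4p2* (0.087), *Xpa* to *Ints8* (0.099) and *Rad23b* to *Wwp1* (0.043). *Nbn* was nearest to *Gm15593*, at the largest distance of the 7 (0.16). With 6 libraries of 2 lines this measure reflects mainly the size of the difference between the lines.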

How the data were processed

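The authors deposited unnormalized whole-number counts per gene beside exon positions and exon length. Per the labels, featureCounts and mm10 were used, while the study's methods name Trimmomatic, Kallisto and DESeq2. The annotation release is not given in the sources used here. Columns were matched to libraries by line and replicate number.

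The 7 genes and the lists were chosen with earlier results of these data known. The genes named were the 7, repair and marker list genes at agreeing positions, nearest neighbors and nearest profiles. Counts were filtered with filterByExpr, normalized by TMM over all rows and tested with edgeR's quasi-likelihood test. Standard errors were derived from the F statistic. In simulated data on 8987 rows for this comparison, 43 of 100 rows changed by 0.5 and 67 of 100 changed by 1 (log2) were called, and 0 of 8787 unchanged rows. All simulated rows were given the same variation beyond counting error (3.12%), so the simulation does not cover rows that vary more. Alternatives were DESeq2, limma-voom, other scalings, filters and thresholds, a block for the replicate number, and fits with 1 library left out. Libraries of the same line differed beyond sampling noise (chi-square per degree of freedom 1.11 to 1.65). The software was edgeR 4.0.16, DESeq2 1.42.0 and limma 3.58.1 in R 4.3.3, with SciPy 1.17.1 for permutation tests.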

Additional observations from a re-analysis of the deposited data

How the results depend on the processing

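For the 7 genes, 105 of 112 values under the alternatives had the same sign and call as reported. Scaling and fitting on agreeing rows alone turned *Xpa* to -0.0083, *Pot1a* to -0.020 and *Ing3* to -0.21, lowered *Aptx*, *Rpa3* and *Sem1* below the threshold and took *Rad23b*, *Topors* and *Usp45* past it as lower. Leaving out 1 library at a time gave *Ing3* -0.015 (without replicate 3 of UN-SCC679) to 0.075. When a log2 fold change beyond 1 in size was required as well, 0 of the 7 genes were called, since the largest value was 0.99. This held with edgeR, DESeq2 and limma-voom, in place of 4, 3 and 4 genes. At an unadjusted p-value under 0.05 at any size, these fits gave 6, 5 and 6 of the 7. With the fold limit, edgeR called 1 of the 9 other repair genes in place of 6, and 1024 rows in place of 2736. At an adjusted p-value under 0.05 there were 5248 rows. Leaving out 1 library gave 2225 to 2611 rows, 3 to 4 of the 7 genes and 6 of the 9. The replicate block gave 2528 rows, 4 genes and 6 genes. Libraries with the same replicate number did not deviate together (correlations -0.038, -0.00052 and -0.022), so the numbers do not pair them. Each line is 1 tumor, so a difference between the lines cannot be assigned to any trait of theirs.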
